A study of Mus musculus with 17 samples.

Results

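The genes described here make estrogens, receive them, or inactivate them and neighbouring steroids in the ovarian follicle. They are 7 genes chosen by symbol: Cyp19a1, Hsd17b1, Sult1e1, Esr1, Esr2, Akr1c18 and Srd5a1. All 7 had an entry among the 25198 genes of the deposited count table, and 6 of the 7 were among the 9603 genes with enough counts to be tested over all libraries (Srd5a1 was not). RNA was sequenced from antral follicles of CD1 mice 16 days old, which had grown for 8 days in eIVFG, a culture system for encapsulated in vitro follicle growth. Tyrphostin libraries came from follicles given hCG (human chorionic gonadotropin, which acts on the luteinizing hormone receptor and starts the ovulatory response) and 10 µM of Tyrphostin-AG1478, which blocks the kinase of the EGF receptor (EGFR), in DMSO for 4 h. Control libraries carry the treatment label Control, but 1 protocol text serves all samples and does not say if hCG or DMSO was given to Control follicles. There were 11 Control libraries (6 in batch 1, 5 in batch 2) and 6 Tyrphostin libraries (3 in each batch). The protocol mentions triplicate follicles for a sample, without saying whether these were pooled in 1 lysate. The labels do not say whether libraries came from separate animals or cultures, so p-values measure the spread between these libraries, which may be technical.

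In a growing follicle, theca cells make androgens from cholesterol, and granulosa cells convert them to estrogens with aromatase, the product of Cyp19a1. Hsd17b1 encodes the 17beta-hydroxysteroid dehydrogenase that reduces estrone to the stronger estrogen estradiol, and follicle-stimulating hormone acting through cyclic AMP raises both genes before ovulation. Estradiol acts through the receptors encoded by Esr1 and Esr2, of which Esr2 is the main form in granulosa cells. Sult1e1 encodes estrogen sulfotransferase, which adds sulfate to estrogens so that they no longer bind their receptors. Akr1c18 encodes 20alpha-hydroxysteroid dehydrogenase, which turns progesterone into a weak metabolite, and Srd5a1 encodes the type of steroid 5alpha-reductase that reduces testosterone and progesterone. The surge of luteinizing hormone that hCG stands in for is known to induce EGF-like ligands in the follicle wall and, within hours, to end aromatase expression.

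Start-site sequences are given for 3 of the 4 genes that passed the test described below, to show what lies at their 5′ ends. RefSeq windows of 250 bases before to 50 bases after each annotated start (build GRCm38.p6) were found for 6 of the 7 genes, and Hsd17b1, the other gene that passed, is the member with no match. The window of Sult1e1, chr5:87591562-87591861 on the minus strand, is written 5′ to 3′ along the gene, with the match to an NR5A site in capitals. The most downstream of the 3 Cyp19a1 windows, chr9:54193694-54193993 on the minus strand, and the Akr1c18 window, chr13:4150597-4150896 on the minus strand, held no match and are in lower case throughout.
Sult1e1: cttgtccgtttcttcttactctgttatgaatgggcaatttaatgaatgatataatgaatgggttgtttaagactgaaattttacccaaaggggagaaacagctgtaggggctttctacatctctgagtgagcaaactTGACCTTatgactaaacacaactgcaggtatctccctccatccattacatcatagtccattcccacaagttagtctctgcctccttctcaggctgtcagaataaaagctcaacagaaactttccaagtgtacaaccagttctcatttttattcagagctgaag
Cyp19a1: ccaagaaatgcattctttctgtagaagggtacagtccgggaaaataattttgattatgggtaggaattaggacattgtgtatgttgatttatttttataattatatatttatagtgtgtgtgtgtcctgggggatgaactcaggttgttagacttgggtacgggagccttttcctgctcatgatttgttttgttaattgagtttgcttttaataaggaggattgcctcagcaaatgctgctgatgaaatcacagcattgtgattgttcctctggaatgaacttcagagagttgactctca
Akr1c18: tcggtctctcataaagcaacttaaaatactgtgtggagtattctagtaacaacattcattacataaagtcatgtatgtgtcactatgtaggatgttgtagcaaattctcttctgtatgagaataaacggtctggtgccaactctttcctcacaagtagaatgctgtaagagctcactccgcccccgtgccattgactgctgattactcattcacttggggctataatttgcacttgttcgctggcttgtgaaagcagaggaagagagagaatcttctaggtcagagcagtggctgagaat
The motifs searched on both strands were the NR5A site AAGGTCA, the cyclic AMP response element TGACGTCA and its core TGACG (which lies inside the longer motif), the palindromic estrogen response element, the AP-1 site TGANTCA and the GATA site AGATAA. The capitals in Sult1e1, TGACCTT, are AAGGTCA on the opposite strand and begin at position -113 from the start. AAGGTCA was present in 4.72% of the 32851 promoter windows of the table. The only other match among the members was the core TGACG in the Esr2 window at position -195, on the opposite strand, and that motif was present in 20.8% of all windows. TGACGTCA was in 1.79% of windows, the estrogen response element in 0.07%, TGANTCA in 7.81% and AGATAA in 11.2%. Counts per gene do not tell which start was used, so no window is tied to a measured transcript. Whether the Cyp19a1 start used in the ovary is among the 3 windows was not tested. Their lack of a match therefore does not describe the ovarian promoter.

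Library totals ran from 1820545 counts in Control 6 to 8291024 in Control 8, and 3 counts correspond to 0.336 to 1.64 CPM (counts scaled to a common library size after TMM adjustment). Summed granulosa markers made up 7.96% to 10.2% of counts in Control and 9.38% to 11.7% in Tyrphostin libraries, and 2 of the 7 markers tested (Fshr and Nr5a2) were higher in Tyrphostin libraries. The defining granulosa markers Foxl2 (mean 0.592 CPM in Control) and Amh (mean 0.0194 CPM in Control, with no count in Control batch 1) were too low to be tested. Theca and stroma markers made up 0.0232% to 0.216% of counts in Control and 0.0299% to 0.368% in Tyrphostin libraries. Of the 8 tested, 0 passed in edgeR's quasi-likelihood test, 0 were at an unadjusted p under 0.05 and 0 were called by DESeq2. For all 9603 genes tested these numbers were 1018, 2279 and 1313. Summed oocyte markers reached at most 0.0236% of counts. Control libraries fall into 5 sets by the numbers in their names, and the labels do not tell whether a set shares animals or cultures.

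Aromatase and Hsd17b1 transcripts were higher, and estrogen sulfotransferase transcripts lower, in Tyrphostin than in Control follicles. In edgeR's quasi-likelihood test over the 17 libraries, which had a batch term, Cyp19a1 was 5.10-fold and Hsd17b1 6.24-fold higher, while Sult1e1 was 5.36-fold and Akr1c18 4.82-fold lower. Esr1 and Esr2 did not pass an adjusted p of 0.05 (Benjamini-Hochberg over all genes tested), and Srd5a1 was too low to be tested. The test thus called 4 of the 6 members tested, against 10.6% of all 9603 genes tested (4.35% higher, 6.25% lower). Of these 4, Akr1c18 passed the filter on low counts largely through Control batch 2, the group where it was highest. It held 26 to 241 counts there, 0 to 10 in Control batch 1 and 0 to 37 in Tyrphostin libraries. Its call is thus not independent of the filter, and in batch 2 alone it did not pass (edgeR adjusted p 0.407). The members were chosen with earlier results of these data known. The count of 4 of 6 and those below are therefore descriptions, not tests against such shares. In bulk libraries, fewer cells of a type and less RNA per cell cannot be told apart. The plot of CPM by library shows each gene in the 4 combinations of treatment and batch.

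**Figure D1:**
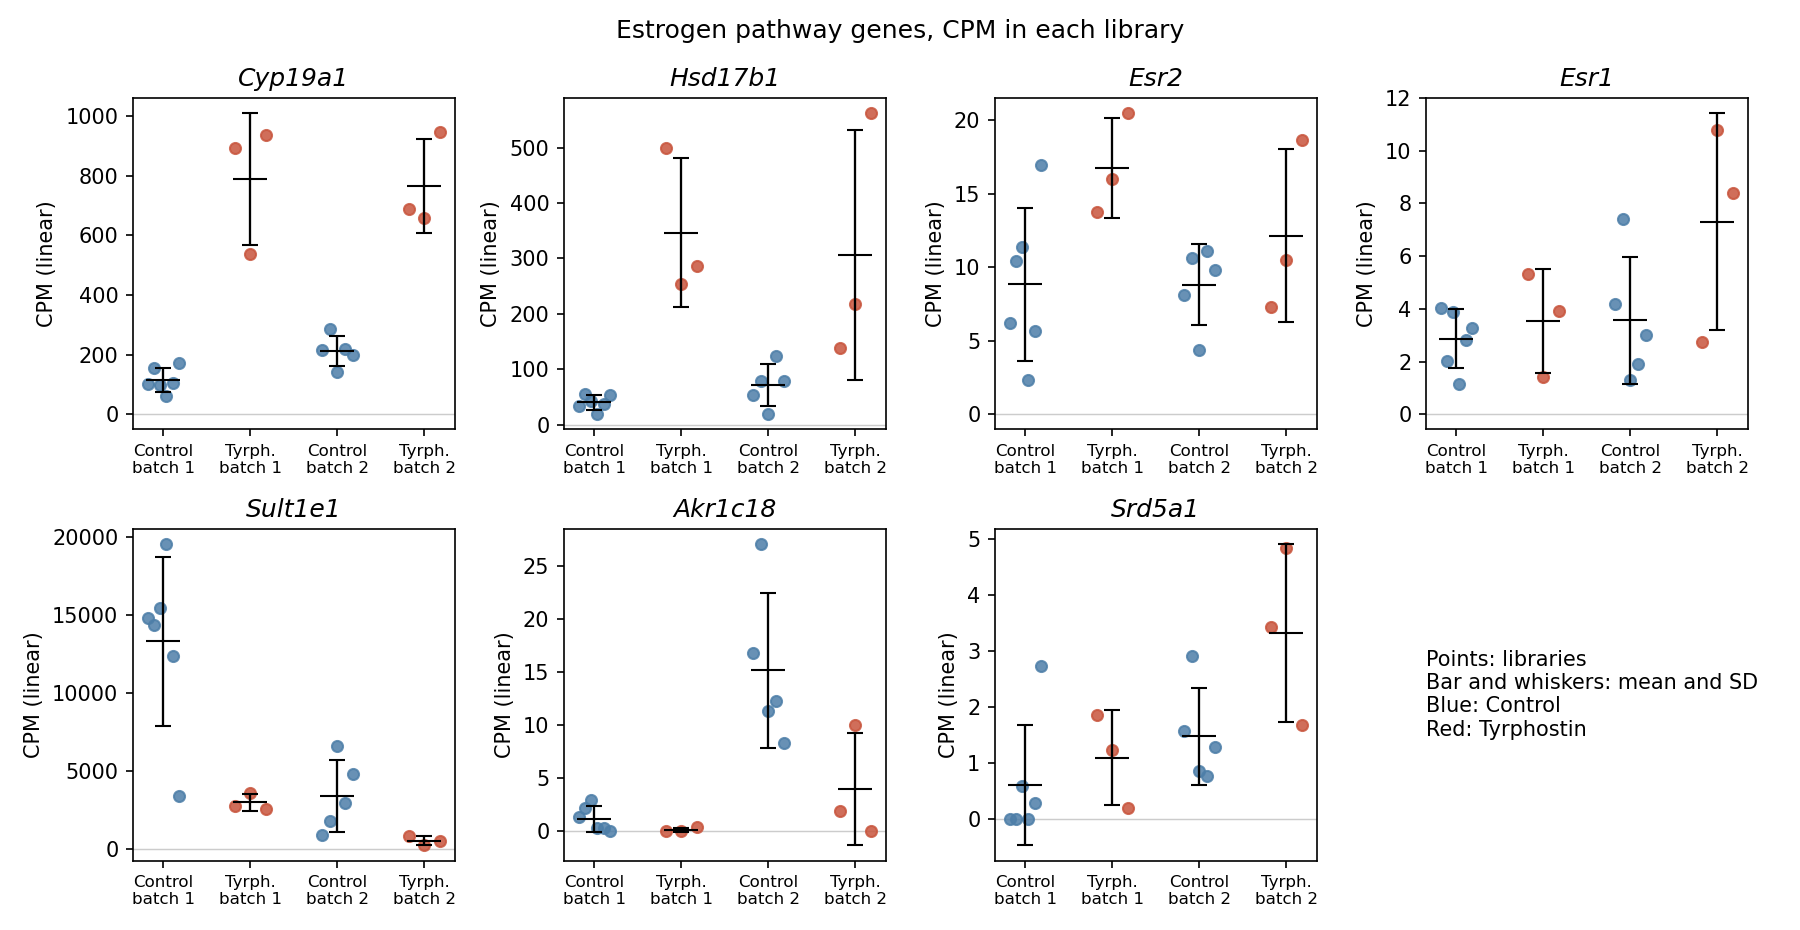
CPM of the 7 genes on linear axes, 1 point per library, in Control (blue) and Tyrphostin (red) follicles of batch 1 and batch 2, with mean and SD. Cyp19a1 and Hsd17b1 in all 6 Tyrphostin libraries lie above all 11 Control libraries, Sult1e1 is lower in batch 2 than in batch 1 in both groups, and Akr1c18 is highest in Control batch 2.

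Cyp19a1, the aromatase gene (chromosome 9, 54165937 to 54268110, minus strand, GRCm38), was measured in every library. Control libraries of batch 1 ran from 60.0 CPM in Control 4 through a median of 103.8 to 170.8 in Control 6. Those of batch 2 held 213.7, 285.4, 142.0, 218.9 and 199.4 CPM (Control 7 to 11). Tyrphostin libraries held 894.4, 535.8 and 937.7 CPM in batch 1 and 689.5, 659.5 and 947.3 in batch 2. Every Tyrphostin library therefore stood above the highest Control library, Control 8, and the groups did not overlap in either batch. Over all libraries, 0.510% of the genes tested separated in this direction. Within batch 1 alone the share of genes that did so was 5.00%, and within batch 2 it was 4.22%.

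The group means of Cyp19a1 were 159 ± 66.6 CPM in Control (SD, n = 11) and 777 ± 172 in Tyrphostin follicles (SD, n = 6). The log2 fold change was 2.35 ± 0.22 (SE), with an adjusted p of 2.84e-07 in edgeR's quasi-likelihood test. By counts, Cyp19a1 ranked between 450 and 1696 among all genes of a Control library and between 134 and 253 in a Tyrphostin library. Within batches its coefficient of variation was 35.4% and 24.2% in Control (batch 1 and batch 2) and 27.95% and 20.7% in Tyrphostin libraries. Leaving out any of the 17 libraries kept the call, with log2 fold changes from 2.23 to 2.47.

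Hsd17b1, the enzyme that makes estradiol from estrone (chromosome 11, 101078411 to 101080527, plus strand, GRCm38), showed the same order of groups. Control libraries of batch 1 ran from 18.9 CPM in Control 4 through a median of 40.6 to 54.7 in Control 2. Those of batch 2 held 54.3, 79.4, 19.1, 123.8 and 79.6 CPM (Control 7 to 11). Tyrphostin libraries held 500.3, 254.2 and 285.8 CPM in batch 1 and 139.0, 217.5 and 562.5 in batch 2. All 6 again stood above every Control library, although Tyrphostin 4 was close to Control 10. The means were 54.3 ± 30.7 CPM in Control (SD, n = 11) and 327 ± 167 in Tyrphostin follicles (SD, n = 6). The log2 fold change was 2.64 ± 0.35 (SE), with an adjusted p of 4.60e-05 by edgeR. It ranged from 2.40 to 2.86 and stayed past the threshold when any of the 17 libraries was left out.

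Sult1e1, estrogen sulfotransferase (chromosome 5, 87575969 to 87591594, minus strand, GRCm38), had the highest group means of all members by CPM per kilobase of exon. In Tyrphostin 6 it lay below Hsd17b1 (405 against 420 CPM per kilobase). Control libraries of batch 1 ran from 3368 CPM in Control 6 through a median of 14586 to 19547 in Control 4. Those of batch 2 held 866, 1783, 6588, 2911 and 4785 CPM (Control 7 to 11). Tyrphostin libraries held 2772, 3608 and 2536 CPM in batch 1 and 828, 217 and 503 in batch 2. In batch 1, 2 of the 3 Tyrphostin libraries lay below every Control library, and the exception, Tyrphostin 2, stood above Control 6 only. The share of genes tested with all 3 below every Control library of batch 1 was 6.30%. In batch 2 all 3 lay below every Control library, as 5.08% of the genes tested did there. Across batches the groups overlapped, since Control libraries of batch 2 reached as low as the Tyrphostin libraries of batch 1.

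Sult1e1 averaged 8803 ± 6609 CPM in Control (SD, n = 11) and 1744 ± 1405 in Tyrphostin follicles (SD, n = 6). The log2 fold change was -2.42 ± 0.43 (SE), with an adjusted p of 0.000927 in edgeR's quasi-likelihood test with batch as a term. Without the batch term the log2 fold change was -2.34 and the adjusted p 0.0591. In 5 of the 6 Control libraries of batch 1, Sult1e1 ranked between 7 and 10 among all genes by counts, and in Control 6 it ranked 46. It ranked between 22 and 199 in Control libraries of batch 2, between 36 and 51 in Tyrphostin libraries of batch 1, and at 157 or beyond in those of batch 2. Control 6 was also the library with the fewest counts, and the part of depth in its low Sult1e1 was not tested. Without it the batch 1 log2 fold change was -2.36. Control 7, the Control library with the least Sult1e1, held 0.175% of its counts in mitochondrial genes. The rest of Control batch 2 held 1.74% to 1.94%, and the part of this difference in the Control 7 values was not tested.

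**Figure D2:**
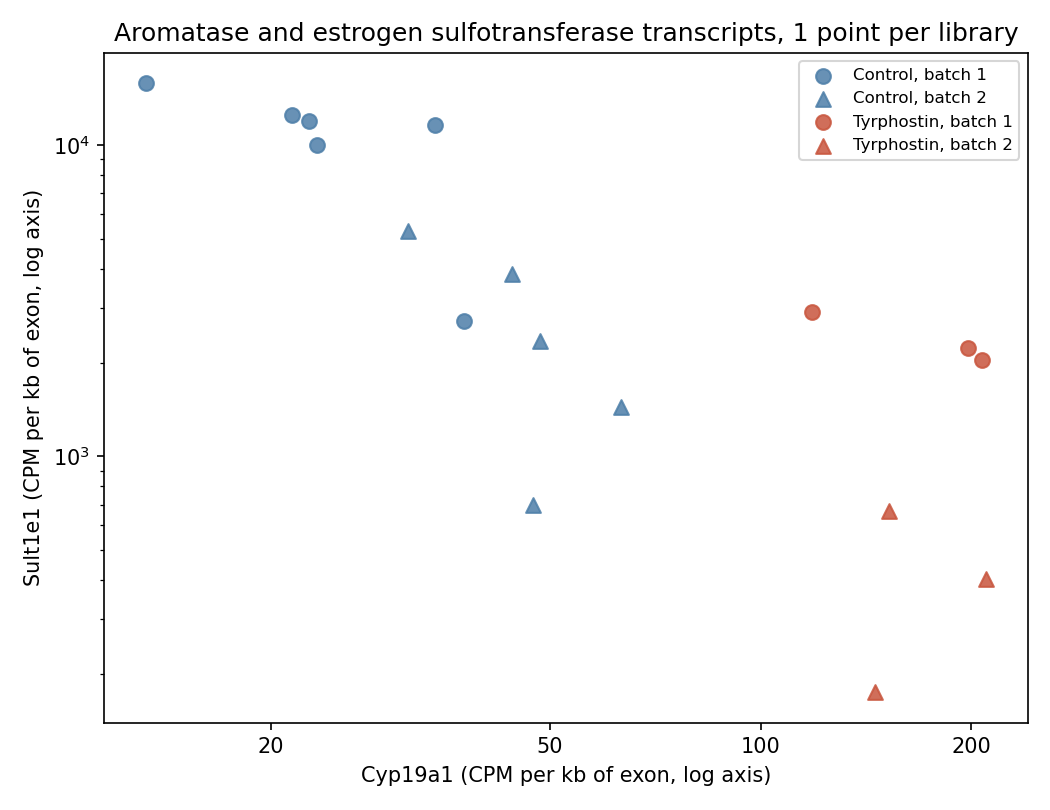
Cyp19a1 (horizontal) against Sult1e1 (vertical), in CPM per kilobase of exon on log axes, 1 point per library, with Control in blue, Tyrphostin in red, batch 1 as circles and batch 2 as triangles. Tyrphostin libraries lie to the right of all Control libraries, and within each batch their Sult1e1 to Cyp19a1 ratios lie below those of Control.

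The sulfotransferase and aromatase transcripts, which moved in opposite directions, were also set side by side within each library. The ratio of Sult1e1 to Cyp19a1, both per kilobase of exon, had a median of 477 in Control batch 1 (71.8 to 1186) and 11.3 in Tyrphostin batch 1 (9.85 to 24.5). In batch 2 the median ratio was 48.4 in Control (14.8 to 168.9) and 1.93 in Tyrphostin libraries (1.20 to 4.37). The ratios did not overlap within a batch, but the Tyrphostin ratios of batch 1 overlapped the Control ratios of batch 2. The ratio of Cyp19a1 to Hsd17b1, by contrast, had similar ranges, from 0.524 to 2.20 in Control and from 0.499 to 1.47 in Tyrphostin libraries. These ratios are descriptions with no test, since they combine genes already compared above.

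The estrogen receptors were scarce in every library, and neither passed the test. Esr2, the main granulosa form (chromosome 12, 76120419 to 76177259, minus strand, GRCm38), ran in Control batch 1 from 2.32 CPM in Control 4 through a median of 8.33 to 16.97 in Control 6. Control batch 2 held 8.14, 10.6, 4.34, 11.1 and 9.82 CPM, and Tyrphostin libraries held 13.8, 16.0 and 20.5 in batch 1 and 7.27, 10.5 and 18.7 in batch 2. Only Tyrphostin 3 and Tyrphostin 6 stood above every Control library. The log2 fold change was 0.71 ± 0.29 (SE), with an edgeR adjusted p of 0.128. Leaving out single libraries gave 0.58 to 0.86, and none of these 17 fits passed the threshold.

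Esr1 (chromosome 10, 4611593 to 5005614, plus strand, GRCm38) was counted between 3 and 66 times per library. It ran in Control batch 1 from 1.16 CPM through a median of 3.05 to 4.04, and Control batch 2 held 4.20, 7.40, 1.30, 1.92 and 2.99 CPM. Tyrphostin libraries held 5.31, 1.40 and 3.90 CPM in batch 1 and 2.74, 10.8 and 8.39 in batch 2. The groups overlapped in both batches, with Tyrphostin 5 and Tyrphostin 6 above every Control library. The log2 fold change was 0.64 ± 0.37 (SE), with an edgeR adjusted p of 0.314. Per kilobase of exon, Esr2 stood above Esr1 in all 17 libraries, with a median ratio of 11.9 in Control (5.84 to 23.5) and 10.6 in Tyrphostin libraries (3.96 to 46.4).

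Akr1c18, which inactivates progesterone (chromosome 13, 4132615 to 4150654, minus strand, GRCm38), differed most between batches. In batch 1 the Control libraries held 0 to 10 counts (median 0.819 CPM, highest 2.99) and the Tyrphostin libraries 0, 0 and 2 counts. In batch 2 the Control libraries held 16.8, 27.0, 11.3, 12.3 and 8.33 CPM, and the Tyrphostin libraries 1.92, 9.97 and 0 CPM. Tyrphostin 4 and Tyrphostin 6 lay below every Control library of batch 2, whereas Tyrphostin 5 lay within their range. Over all libraries the log2 fold change was -2.27 ± 0.69 (SE), with an edgeR adjusted p of 0.0421. The call was lost when any of 10 of the 17 libraries was left out (adjusted p up to 0.106, without Tyrphostin 4) and under 6 of 14 other settings, including the fit without the batch term (adjusted p 0.289).

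Without Tyrphostin 5 the log2 fold change of Akr1c18 was -3.71, with an edgeR adjusted p of 0.00172. That library also held the highest share of theca and stroma markers, 0.368% of counts against at most 0.114% in the other Tyrphostin libraries. These markers likewise had a higher median share in Control batch 2 (0.139%) than in Control batch 1 (0.0442%), and their part in the Akr1c18 values was not tested. Of the 1205 windows of 50 bases along Akr1c18 transcripts, 0.581% also occur in the related Akr1cl.

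Srd5a1 (chromosome 13, 69573449 to 69611442, minus strand, GRCm38) lay near the limit of 3 counts in many libraries. Control libraries held 0 to 26 counts, with a mean of 1.00 ± 1.04 CPM (SD, n = 11), and Tyrphostin libraries held 1 to 25 counts, with a mean of 2.21 ± 1.67 CPM (SD, n = 6). Tyrphostin 4 and Tyrphostin 5, at 3.43 and 4.85 CPM, stood above every Control library. With no filter on low counts the log2 fold change was 1.19 ± 0.51 (SE) and the edgeR adjusted p 0.217, in a fit that called 4.28% of 21622 genes. The gene overlaps Gm17108 on the same strand over 476 exon bases, and 15.1% of its 50-base windows occur there too, so its counts are uncertain.

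Compared between genes per kilobase of exon, the mean Control levels ran in the order Sult1e1 (7088 CPM per kilobase), Hsd17b1 (40.6), Cyp19a1 (35.2), Akr1c18 (6.24), Esr2 (2.62), Srd5a1 (0.344) and Esr1 (0.233). Neighbouring means differed by less than the larger of their SDs for Hsd17b1 and Cyp19a1 (SDs 23.0 and 14.7), for Akr1c18 and Esr2 (7.18 and 1.21) and for Srd5a1 and Esr1 (0.358 and 0.128). In Tyrphostin follicles the means were 1404 for Sult1e1, 244 for Hsd17b1, 172 for Cyp19a1, 4.29 for Esr2, 1.70 for Akr1c18, 0.760 for Srd5a1 and 0.397 for Esr1, in CPM per kilobase. There too Hsd17b1 and Cyp19a1 differed by less than the SD of Hsd17b1 (125), and the 4 lowest genes did not differ from their neighbours beyond the larger SD (1.48 for Esr2, 3.28 for Akr1c18, 0.572 for Srd5a1 and 0.260 for Esr1). The length used is the union of annotated exons, which understates the level of a gene with many alternative exons such as Esr1.

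The batches, which share no libraries, were then fitted separately. In batch 1, edgeR called 3 of the 5 members tested there, against 6.73% of 9423 genes (2.94% higher, 3.79% lower). Cyp19a1 had a log2 fold change of 2.79 ± 0.28 (SE, adjusted p 1.09e-05), Hsd17b1 of 3.12 ± 0.29 (adjusted p 3.98e-06) and Sult1e1 of -2.16 ± 0.42 (adjusted p 0.00404). In batch 2, edgeR called 1 of 7 members, against 0.621% of 9830 genes (0.193% higher, 0.427% lower). That gene was Cyp19a1, at 1.86 ± 0.27 (SE, adjusted p 0.00887), and its call was lost without Tyrphostin 6 (adjusted p 0.0688). Hsd17b1 and Sult1e1 kept their directions in batch 2, at 2.10 ± 0.54 (SE, adjusted p 0.126) and -2.71 ± 0.68 (SE, adjusted p 0.113). DESeq2, which called 303 genes in batch 2 against 61 in edgeR, gave adjusted p-values of 0.00787 and 0.000520 for these genes. With no filter on low counts, edgeR gave an adjusted p of 0.412 for each.

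Esr2 and Esr1 did not pass in either batch, although Esr2 in batch 1 passed under 1 of 3 other settings (edgeR adjusted p 0.0212). Esr2 had log2 fold changes of 0.97 ± 0.39 (SE) in batch 1 and 0.43 ± 0.37 in batch 2, and Esr1 of 0.33 ± 0.49 and 0.92 ± 0.54. Akr1c18 in batch 2 had a log2 fold change of -2.06 ± 0.86 (SE), with an edgeR adjusted p of 0.407, and was too low to be tested in batch 1. The difference between the batches' treatment effects was tested directly, and no gene of 9603 passed in edgeR, with 0 called by DESeq2. In edgeR, 342 genes (3.56% of those tested) were at an unadjusted p under 0.05. For Cyp19a1 the effect in batch 2 minus that in batch 1 was -0.93 ± 0.42 on the log2 scale (SE, unadjusted p 0.0379, adjusted p 0.9997).

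**Figure D3:**
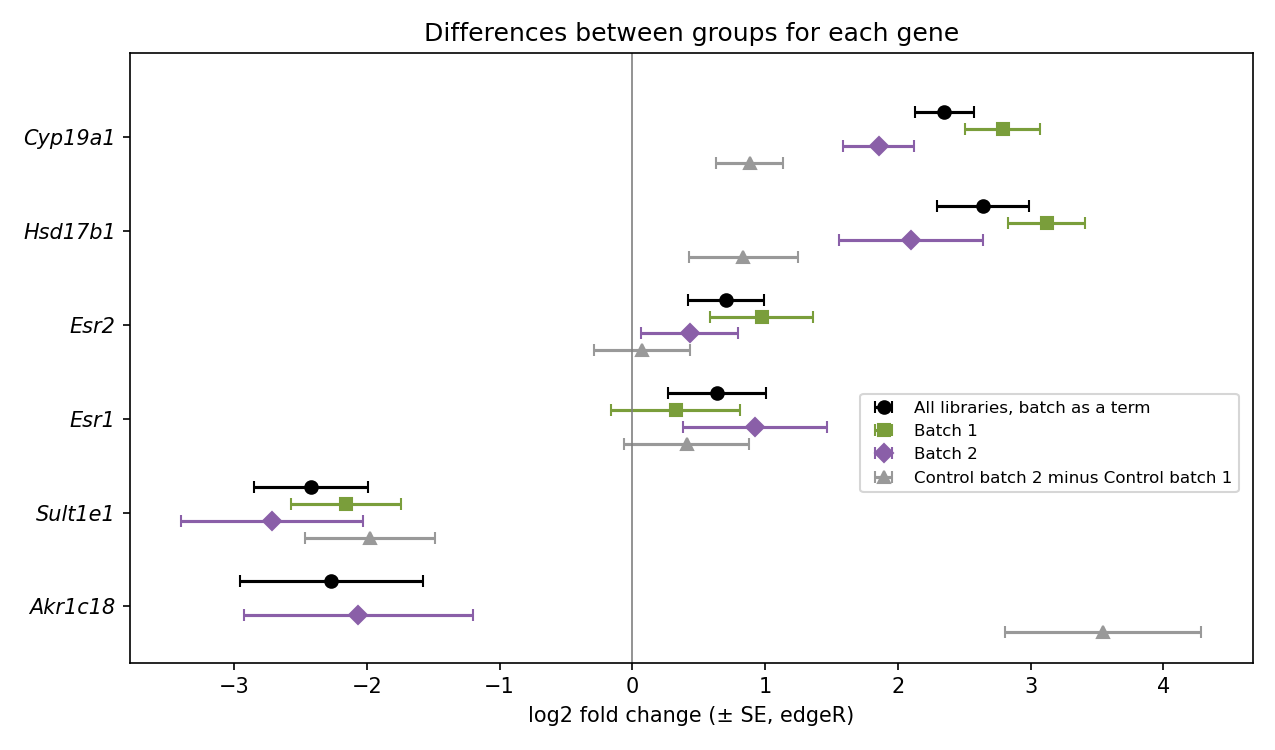
Log2 fold change with SE (horizontal) for the 6 genes tested, for Tyrphostin against Control over all libraries (black circles), in batch 1 (green squares) and in batch 2 (purple diamonds), and for Control batch 2 minus Control batch 1 (grey triangles). Akr1c18 has no batch 1 value, and its Control batch difference of 3.55 exceeds in size every other value shown.

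Control follicles of the batches differed for the same pathway. Between Control batch 2 and Control batch 1, edgeR called 3 of the 6 members tested, against 11.5% of 9603 genes (5.84% higher in batch 2, 5.64% lower). Of these 3, Akr1c18 passed the filter on low counts largely through Control batch 2. Akr1c18 was 11.7-fold higher in batch 2 (log2 fold change 3.55 ± 0.74, SE, adjusted p 0.00508), the rank 7 change by size among all genes tested, and its batches did not overlap, as for 3.41% of genes in that direction. Sult1e1 was 3.93-fold lower (-1.98 ± 0.49, adjusted p 0.0137), with 3 of 5 libraries of batch 2 below all 6 of batch 1, and 3.82% of genes had all 5 below. Cyp19a1 was 1.85-fold higher (0.88 ± 0.25, adjusted p 0.0244), a call lost when any of 5 of the 11 Control libraries was left out (adjusted p up to 0.0874, without Control 8). Hsd17b1 (0.84 ± 0.41, adjusted p 0.203), Esr1 (0.41 ± 0.47) and Esr2 (0.07 ± 0.36) did not pass. Under 1 of 3 other settings Hsd17b1 did pass (edgeR adjusted p 0.00828). What differed between the batches is not given in the labels.

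The other genes of the pathway were read from 7 lists, each described by its counts and median beside the median of all genes tested, which was 5.42e-05 on the log2 scale (0.145 when scaled by total counts only). Their counts stand against 4.35% of all genes tested called higher and 6.25% called lower. The lists were chosen with earlier results of these data known, so their counts are descriptions, not tests against these shares. Of the 9 substrate-supply genes tested, 2 rose and 1 fell, with a median log2 fold change of 0.28. Hsd3b1, which makes progesterone and androstenedione, rose from 9717 ± 2046 to 16186 ± 3960 CPM (SD, n = 11 and 6; log2 fold change 0.74, edgeR adjusted p 0.00821). Fdxr, which passes electrons to the mitochondrial steroid hydroxylases, rose by a log2 fold change of 1.30 (adjusted p 0.00147). It was above every Control library in all 6 Tyrphostin libraries, as were 0.510% of the genes tested. Hsd3b1 was above every Control library in 4 of the 6. Star, which carries cholesterol into mitochondria, fell by 0.99 on the log2 scale (adjusted p 0.0143), a call lost in 4 of 16 other settings. Cyp17a1, the theca enzyme that makes androgens, had a log2 fold change of 0.75 ± 0.55 (SE, adjusted p 0.456).

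None of the 4 other 17beta-hydroxysteroid dehydrogenases tested passed in edgeR, with 1 at an unadjusted p under 0.05 and 0 called by DESeq2. Of all 9603 genes tested, 2279 were at an unadjusted p under 0.05 and 1313 were called by DESeq2. The most abundant by CPM, Hsd17b12, held 231 ± 70.4 CPM in Control and 285 ± 56.3 in Tyrphostin follicles (SD, n = 11 and 6; log2 fold change 0.30 ± 0.19, SE). Of the 4 conjugation and hydroxylation genes tested, 3 rose, with a list median of 1.00. Papss2 (log2 fold change 1.41, edgeR adjusted p 8.36e-06) and Papss1 (0.60, adjusted p 0.0499) make the sulfate donor that sulfotransferases use, and are not themselves conjugating enzymes. Cyp1b1, which hydroxylates estradiol, rose by 1.58 (adjusted p 0.00813). Papss2 lay above every Control library in all 6 Tyrphostin libraries, Cyp1b1 in 3 and Papss1 in 1. Among 6 other steroid reductases tested, Akr1b8 fell by 1.24 on the log2 scale (adjusted p 0.0103) and none rose, with a list median of 0.18. In 7 of 16 other settings 2 of the 4 conjugation and hydroxylation genes were called, and Akr1b8 was not called in 4 of 16.

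Of 13 other receptors and coregulators tested, 1 rose and 1 fell, with a median log2 fold change of 0.05, shares near those of all genes tested (4.35% higher, 6.25% lower). Nrip1, a corepressor bound by estrogen receptors, rose by 0.74 (edgeR adjusted p 0.00232). Pgr, the progesterone receptor, fell by 1.17 on the log2 scale (adjusted p 0.0141), from 1996 ± 1085 CPM in Control to 850 ± 589 in Tyrphostin follicles (SD, n = 11 and 6). Of 7 genes known as estrogen receptor targets in other cells, 2 rose and none fell, with a median of 0.14. Greb1 rose from 286 ± 118 to 1062 ± 326 CPM (SD, n = 11 and 6; log2 fold change 1.96, adjusted p 8.06e-06) and lay above every Control library in all 6 Tyrphostin libraries. Ccnd2, a D-type cyclin, rose by 1.43 (adjusted p 8.71e-05), with 2 of the 6 Tyrphostin libraries above every Control library. For Nrip1 5 of the 6 lay above every Control library, and for Pgr 2 lay below. Pgr was not called in 3 of 16 other settings, nor Nrip1 in another 3, and without the batch term 1 of the 7 target genes was called.

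The list of factors known to act on the ovarian Cyp19a1 promoter also holds the gonadotropin receptors Lhcgr and Fshr, which do not bind promoters. It does not separate activators from repressors. Of its 11 genes tested, 6 rose and none fell, with a median log2 fold change of 0.83. Of all genes tested, 4.35% were called higher. Nr5a2, a nuclear receptor that binds NR5A sites, rose from 44.7 ± 9.79 to 202 ± 36.3 CPM (SD, n = 11 and 6; log2 fold change 2.18, edgeR adjusted p 8.38e-09) and lay above every Control library in all 6. Its relative Nr5a1 had a log2 fold change of -0.11 ± 0.15 (SE, adjusted p 0.704). Gata4 rose by 2.32 (adjusted p 0.00461), Foxo1 by 1.30 (adjusted p 0.00266) and the immediate-early nuclear receptor Nr4a1 by 0.84 (adjusted p 0.0159). The gonadotropin receptors Lhcgr (1.02, adjusted p 0.00765) and Fshr (0.83, adjusted p 0.0344) rose as well. Of the 6 Tyrphostin libraries, 5 lay above every Control library for Foxo1 and for Nr4a1, 3 for Gata4 and for Fshr, and 1 for Lhcgr. Without the batch term 3 of these 11 were called higher, and likewise 3 with Control libraries summed by set. Fshr and Nr5a2 are also on the granulosa marker list, whose summed share was higher in Tyrphostin libraries (medians 10.85% and 9.24%). That share is of counts before TMM adjustment. The most abundant of these markers, Inha, Inhba and Gja1, had log2 fold changes of -0.05, -0.07 and 0.34 (edgeR adjusted p 0.894, 0.832 and 0.170). Fst had 1.05 and Cdh2 -0.01 (adjusted p 0.598 and 0.982). The part of cell makeup was not tested.

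**Figure D4:**
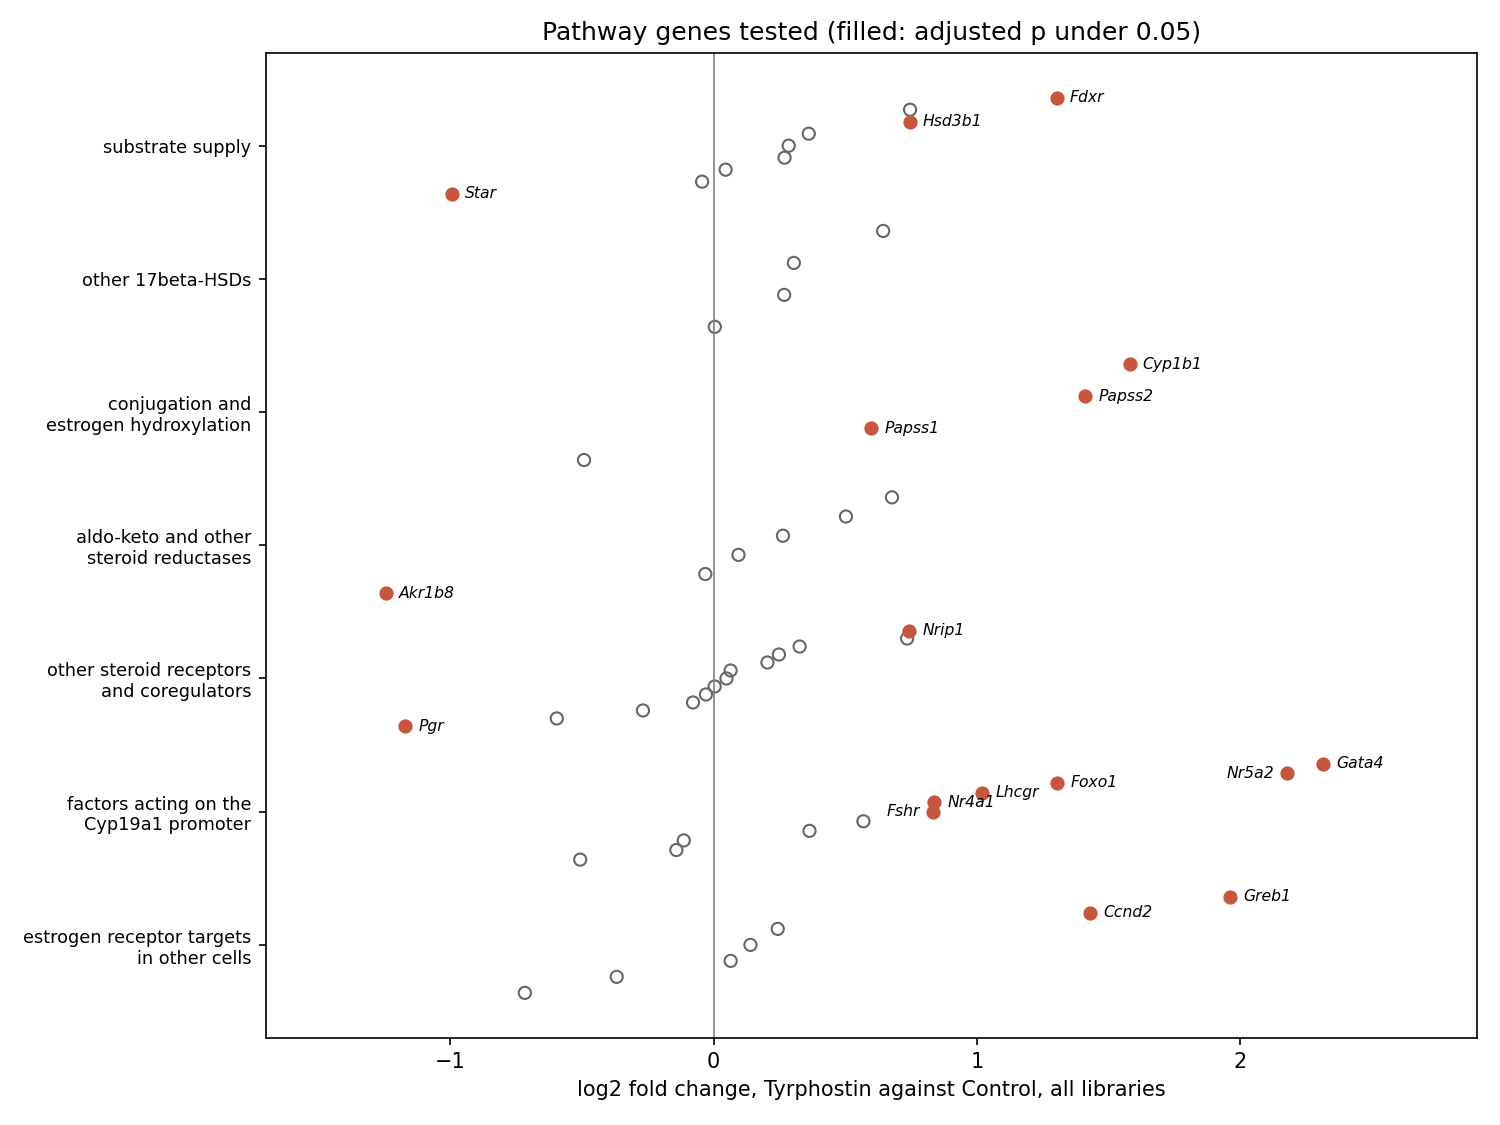
Log2 fold change of Tyrphostin against Control over all libraries (horizontal) for each gene tested in the 7 pathway lists (vertical), with genes past an edgeR adjusted p of 0.05 filled and named. The list of factors acting on the Cyp19a1 promoter has 6 filled points, all to the right of 0. That list also holds the gonadotropin receptors Fshr and Lhcgr, and does not separate activators from repressors. Star, Akr1b8 and Pgr are the filled points to the left.

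The genes whose pattern was most like that of each member were found by Pearson correlation of log2 CPM over the 17 libraries. These libraries share batch, depth and treatment, so the values are descriptions. Cyp19a1 and Hsd17b1 were each other's closest match (r 0.936, Spearman rho 0.944), among 6332 candidates. After Cyp19a1 came Dhcr7 (0.921) and Rasgef1b (0.920), and after Hsd17b1 came Nt5m (0.917) and Fam53a (0.912). Sult1e1 was most like Btc (0.977), Il7 (0.970) and Ncoa7 (0.960). With Cyp19a1 it had an r of -0.773.

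With the mean of each treatment and batch group subtracted, the matches changed. Cyp19a1 was then most like Cul7 (r 0.873), Hjurp (0.842) and Bok (0.820), Hsd17b1 most like Fetub (0.904), Bok (0.887) and Nt5m (0.871), and Sult1e1 most like Tmcc1 (0.969), Purb (0.967) and Bzw1 (0.947). Cyp19a1 and Hsd17b1 kept an r of 0.729 with each other. Esr2 followed both within groups, with an r of 0.802 to Cyp19a1 and 0.777 to Hsd17b1, from 8 to 105 counts of Esr2 per library. Control 4, for example, was the lowest library of Control batch 1 in Cyp19a1, Hsd17b1, Esr2 and Esr1 and the highest in Sult1e1.

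For the receptors and Akr1c18 the closest genes were as follows. Esr2 was most like Nup88 (r 0.884), Rbms1 (0.864) and Camkk2 (0.859) over all libraries, and within groups most like Nup88 (0.876), Prdm1 (0.847) and Rbms1 (0.839). Esr1 was most like Fcgrt (0.802), Mtmr14 (0.759) and Myd88 (0.754), and within groups most like Dgcr6 (0.761), Fcgrt (0.748) and Bcas3 (0.747). Akr1c18 was most like Scd1 (0.858), Jarid2 (0.854) and Endod1 (0.854), and within groups most like Dusp3 (0.867), Igfbp3 (0.845) and Pfkfb2 (0.803). For Akr1c18 these values rest on 0 to 10 counts in the libraries of batch 1. Those of Esr1 rest on 3 to 66 counts per library, and those of Esr2 on 8 to 105.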

How the data were processed

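Bulk RNA-seq counts of 17 libraries (11 Control, 6 Tyrphostin, 2 batches) were used. The authors deposited raw counts by gene symbol, for 25198 genes, and 3576 of these had no count in any library. STAR, HTSeq and the build GRCm38 are named in the submitters' processing notes, without versions. The annotation and strand setting are not given in the sources used here. Extraction used RNA-SPRI beads, and library preparation used Smart-Seq2, which has no molecular identifiers, per the labels' protocols.

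Tests on the counts used R 4.3.3 and edgeR 4.0.16 (filterByExpr by treatment group, TMM, estimateDisp, robust glmQLFit, quasi-likelihood F test, Benjamini-Hochberg over all genes tested, threshold 0.05). SEs of log2 fold changes were derived from F (absolute log2 fold change over the root of F). The model over all libraries had batch as a term. Batches were also fitted alone, and a fit with 4 treatment-by-batch groups gave the interaction and the Control batch difference. Alternatives used other scalings, filters, covariates and thresholds, DESeq2 1.42.0 and limma 3.58.1, and the omission of each library. The procedures were also run on simulated data, in which each library was drawn independently. Sharing of animals or cultures between libraries was therefore not covered.

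CPM uses TMM-adjusted library sizes, so precision is limited by totals of 1820545 to 8291024 counts, and floors cover counting error only. All 31 pairs of libraries from 1 group and batch differed beyond sampling noise (chi-square divided by its degrees of freedom 11.8 to 84.1), so none was merged. Replicate numbers shared by Control and Tyrphostin were not taken as pairs, since numbers 4 to 6 cross batches. The Control set numbers were not taken as pairs either (correlation of deviations -0.27 to 0.11). With so few libraries, these values cannot show that no animals or cultures were shared. Positions and exon lengths came from GENCODE M21 (GRCm38), promoter windows from RefSeq (GRCm38.p6).

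The members, pathway lists and markers were chosen with earlier results of these data known. Named were all members, list genes past the threshold (or, where none passed, the most abundant), and for each member tested the 3 genes of highest Pearson r (log2 CPM, prior count 2, average log2 CPM of at least 3), with and without group means subtracted. Cyp17a1, Nr5a1 and the 2 granulosa markers too low to test were named besides, after their values were seen. Hsd17b8 and Sts were not analysed here.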

Additional observations from a re-analysis of the deposited data

Results flagged for a closer look

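In groups of 4 to 10 libraries, 39 groups over 13 measures were examined for a library whose gap to the nearest of the others exceeded Dixon's 95% critical value. There were 6 such groups, where chance gives about 1.95.

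Tyrphostin 5 held 9.97 CPM of Akr1c18, against 0 to 1.92 in the other Tyrphostin libraries of both batches. The same library held the highest share of theca and stroma markers in its group (0.368% of counts, against 0.0299% to 0.114%) and of immune markers (0.00192%, against 8.55e-05% to 0.000288%). Akr1c18 and these marker shares had lower medians in Control batch 1 than in Control batch 2, and the part of batch in the Tyrphostin 5 flags was not tested. Within batch 2, Tyrphostin 4 and Tyrphostin 6 held 1.92 and 0 CPM of Akr1c18. Control 6 held 2.74 CPM of Srd5a1, from 5 counts, where the rest of Control batch 1 held 0 to 0.598 CPM. Its total of 1820545 counts was also far below their 3807300 to 4834875. Control 8 held an immune marker share of 0.00082%, where the rest of Control batch 2 held 0.000201% to 0.000348%. The part of these libraries' makeup or depth in the Akr1c18 and Srd5a1 values was not tested.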

How the results depend on the processing

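Cyp19a1 and Hsd17b1 kept their direction and call over all libraries under 16 of 16 alternatives and 17 of 17 omissions of a library, and Sult1e1 under 15 of 16 and 17 of 17. Without the batch term the log2 fold change of Sult1e1 was -2.34 (edgeR adjusted p 0.0591), and the cause was not tested. Akr1c18 kept its direction but lost its call with total-count scaling (-2.10), no filter (-2.27), no batch term (-2.11), batch with log10 total count (-2.27), Control libraries summed by set (-2.30) and a threshold of 0.01 (-2.27). Its value ranged from -3.71 to -1.83 when single libraries were left out. Akr1c18 was below the filter in the fits of the 12 libraries numbered 1 to 6.

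The count over all libraries, 1018 genes, fell to 678 when log10 total count was added to batch, 619 when batch was dropped, 478 at 0.01 and 450 when a log2 fold change of 1 or more in size was required, and was 708 to 1314 without single libraries. With a replicate block over the 12 libraries numbered 1 to 6 it was 624, and without the block 601, an alternative chosen after seeing the data, as was the unfiltered fit of Srd5a1. The correlations of same-numbered libraries' deviations from their treatment means were 0.47, 0.31 and 0.38 for the numbers within batch 1 and 0.01, -0.13 and -0.06 for those that cross batches. The set numbers of Control libraries (1, 2, 4, 5 and 6) also match Tyrphostin numbers within a batch, and with treatment-by-batch means removed these correlated at 0.11, 0.01, -0.04, -0.27 and 0.11. Neither numbering had every pair above 0.1, so neither was taken as a pairing, and whether pairs share animals or cultures is not known. A replicate block on set numbers, added after seeing the data, called 987 genes and kept the calls of Cyp19a1, Hsd17b1, Sult1e1 (-2.25) and Akr1c18 (-3.03). With total counts only, 715 genes were higher and 396 lower, against 418 and 600. Batch 1 gave 634 genes (394 to 687 without single libraries). Batch 2 gave 61 (11 to 221), 222 with no filter and 303 with DESeq2. The interaction gave 0, and 79 with no filter.

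Some values that had not passed changed sign when a library was left out: Esr1 in batch 1 (-0.11 to 0.72), Esr2 in batch 2 (-0.026 to 0.71), the Akr1c18 interaction (-0.56 to 3.59), and the Control batch differences of Esr2 (-0.13 to 0.29) and Esr1 (-0.12 to 0.57). Depth limits Srd5a1 (0 to 26 counts per library) and, in batch 1, Akr1c18 (0 to 10).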

Other observations

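By the 5 sets in the Control library names, Sult1e1 ran from 14388 to 15432 CPM in set 1 (3 libraries), from 3368 to 19547 in set 2 (3 libraries), from 866 to 1783 in set 4 (2 libraries) and from 2911 to 4785 in set 6 (2 libraries), and was 6588 in the library of set 5. Akr1c18 ran from 1.35 to 2.99 CPM in set 1, from 0 to 0.290 in set 2, from 16.8 to 27.0 in set 4 and from 8.33 to 12.3 in set 6, and was 11.3 in set 5. Set 5 held less Cyp19a1 (142 CPM) and Hsd17b1 (19.1 CPM) than the other sets of batch 2. These values were not tested.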
